A study of Mus musculus with 8 samples.

Results

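The mitochondrial respiratory chain and ATP synthase are built from 2 sets of genes, and 91 nuclear genes of that machinery were followed across 8 libraries of mouse epidermal Langerhans cells. The members were the protein-coding genes of the count table whose symbols carry the names of complex I (Nduf), succinate dehydrogenase (Sdha to Sdhd), complex III (Uqcr and Cyc1), cytochrome c oxidase (Cox4 to Cox8) and ATP synthase (Atp5). They numbered 91 of 25247 genes. Of these, 82 are counted here as subunit genes, with 38 in complex I, 4 in complex II, 9 in complex III, 15 in complex IV and 16 in complex V. The complex was taken from the symbol, so Ndufa4 is counted in complex I and Cox7a2l in complex IV. The other 9 carry the same prefixes but are not subunits: 8 Ndufaf assembly factors of complex I, and Atp5s, also named Dmac2l.

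Complexes I and II pass electrons from NADH and succinate to ubiquinone, complex III passes them on to cytochrome c, and complex IV reduces oxygen. Complexes I, III and IV pump protons, and ATP synthase, complex V, uses the gradient to make ATP. The subunits of complexes I, III, IV and V come from both the nuclear and the mitochondrial genome, while complex II is wholly nuclear-encoded. Nuclear transcripts are made by RNA polymerase II, polyadenylated and translated in the cytosol, whereas mitochondrial transcripts are made and translated inside the organelle.

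The cells came from ear epidermis of C57BL/6 mice and were sorted, per the labels, as viable cells that bore CD45, CD24, EpCAM and MHC class II and lacked CD103 and Ly6G. Wild-type (WT) mice were set against mice labelled as knockouts (KO) of Ezh2, the histone methyltransferase of Polycomb repressive complex 2. The labels give neither the Cre driver nor the deleted exons nor the age, and do not say whether libraries came from separate animals, so each p-value rests on library-to-library spread that could be technical. The library code in a sample's title and that in its description gave the same genotype for RMN030 and RMN031 (WT) and for RMN038 and RMN039 (KO). The titles gave RMN032 and RMN033 as KO and RMN036 and RMN037 as WT, and the descriptions gave the reverse. Each comparison is therefore given for the 4 undisputed libraries (2 against 2), for the title reading (4 against 4) and for the description reading (4 against 4). RMN030 to RMN033 are called the earlier codes and RMN036 to RMN039 the later codes. Genotype and code run cannot be told apart in the description reading or in the undisputed fit.

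Library totals ranged from 11051402 to 18966195 counts. Ezh2 was detected in every library, at 10.5 to 22.4 CPM (reads of a gene per 1000000 counted in the library), and its change did not pass the threshold in any reading (edgeR adjusted p = 0.455 undisputed). By title, the KO libraries were at 15.2, 14.9, 12.7 and 10.5 CPM and the WT libraries at 15.7, 22.4, 19 and 17.6 CPM, so that every KO library lay below every WT library, as for 1.53% of all genes. The log2 fold change was -0.49 ± 0.18 (SE), with an unadjusted p of 0.0207 and an adjusted p of 0.998 (edgeR). By description the groups overlapped, and the log2 fold change was -0.15 ± 0.22, with an unadjusted p of 0.525 and an adjusted p of 0.869 (edgeR). The disputed labels were not reassigned from these values. The 10 Langerhans cell markers summed to 78418 to 99894 CPM. The 10 T cell markers summed to 247 CPM in RMN030 and 224 in RMN031 and to 3.22 to 8.54 CPM in the other 6 libraries. Summed markers were higher in the later codes by 5.61-fold for blood, 8.49-fold for mast cells, 3.22-fold for fibroblasts and 2.41-fold for macrophages, and keratinocyte markers summed to 11711 to 15069 CPM in all 8. The part of these other transcripts in the results that follow was not tested. In bulk RNA, fewer cells of a type and less RNA per cell cannot be told apart.

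Before the values, the promoters of a few members are shown, because members from all 5 complexes carry the same short sequences near their transcription starts, a feature the choice by symbol did not use. RefSeq windows (GRCm38.p6, 250 bases before to 50 after the start) were matched for 73 of the 91 members, in 78 windows. Capitals mark matches to GCGCATG, the core bound by nuclear respiratory factor 1 (NRF1), and to CCGGAAG, an ETS core of the kind bound by GABP, on either strand. The windows shown are the 250 bases before the start, of the highest-expressed member per length and of the highest members that hold either core there.
Atp5b: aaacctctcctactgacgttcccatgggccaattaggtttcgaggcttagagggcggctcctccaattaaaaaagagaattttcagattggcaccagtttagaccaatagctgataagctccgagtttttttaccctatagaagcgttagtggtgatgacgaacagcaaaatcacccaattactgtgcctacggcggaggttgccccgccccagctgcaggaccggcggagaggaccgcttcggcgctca
Sdhb: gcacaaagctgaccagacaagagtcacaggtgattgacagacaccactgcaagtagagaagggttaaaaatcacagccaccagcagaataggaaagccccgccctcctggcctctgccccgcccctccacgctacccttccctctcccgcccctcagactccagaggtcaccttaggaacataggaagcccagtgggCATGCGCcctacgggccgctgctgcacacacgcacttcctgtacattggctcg
Atp5g2: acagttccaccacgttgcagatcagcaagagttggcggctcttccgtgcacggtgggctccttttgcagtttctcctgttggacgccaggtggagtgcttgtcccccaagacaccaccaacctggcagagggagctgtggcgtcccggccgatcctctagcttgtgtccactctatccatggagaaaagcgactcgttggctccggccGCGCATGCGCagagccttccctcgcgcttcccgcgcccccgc
Sdhd: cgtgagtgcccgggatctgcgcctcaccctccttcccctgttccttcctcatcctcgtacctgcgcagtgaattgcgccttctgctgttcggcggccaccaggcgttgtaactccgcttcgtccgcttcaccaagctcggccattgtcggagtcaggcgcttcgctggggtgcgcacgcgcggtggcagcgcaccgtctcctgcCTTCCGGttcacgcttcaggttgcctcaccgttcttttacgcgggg
Atp5h: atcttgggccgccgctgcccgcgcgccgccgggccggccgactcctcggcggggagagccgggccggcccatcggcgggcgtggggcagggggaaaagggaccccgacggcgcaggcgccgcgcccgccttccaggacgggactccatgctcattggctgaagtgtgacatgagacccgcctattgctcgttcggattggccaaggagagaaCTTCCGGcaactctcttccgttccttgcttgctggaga

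The Atp5b window lies at chr10:128083057-128083306 on the plus strand and holds neither core. In Sdhb (chr4:140961021-140961270, plus strand) the NRF1 core begins 53 bases before the start. In Atp5g2 (chr15:102671048-102671297, minus strand) the core is present on both strands as overlapping matches that begin 42 and 39 bases before the start. The ETS core begins 46 bases before the start in Sdhd (chr9:50603850-50604099, minus strand) and 38 bases before it in Atp5h (chr11:115419920-115420169, minus strand). In the whole 300-base windows, 15 of 73 member genes held the NRF1 core (20.5%) against 4.41% of 27025 genes with a window. The ETS core was in 18 of 73 (24.7%) against 9.93% of all. AAGATGGC, the core of YY1, was in 10 of 73 (13.7%) against 3.19%. Complex I accounted for 7 of those 10, and for 33 of the 73 genes with a window. AAGGTCA, read by oestrogen-related receptors, was in 8 (11%) against 5.38%. TATAAA was in 6 (8.22%) against 15.7%. The member windows held a median of 19.5 CG dinucleotides, and all windows a median of 7. These matches describe letters in a window and were not tested, and no library measured binding there.

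The nuclear-encoded subunits were at nearly the same summed level in all 8 libraries. Their 82 genes summed to 4992, 4434, 4558 and 4674 CPM in RMN030 to RMN033, and to 4455, 4487, 4452 and 4392 CPM in RMN036 to RMN039. The lowest and highest libraries differed 1.14-fold. RMN030 stood above the other 7, and the other earlier codes overlapped with the later codes. The 13 mitochondrially encoded subunits, by contrast, summed to 8881, 14649, 16077 and 13086 CPM in the earlier codes and to 35599, 33041, 32818 and 32529 CPM in the later codes. Every later library was above every earlier one, and the mean of the later codes was 2.54 times that of the earlier codes, against 0.953 times for the nuclear genes. With the mitochondrially encoded counts taken out of the library total, the nuclear ratio was 0.977.

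**Figure D1:**
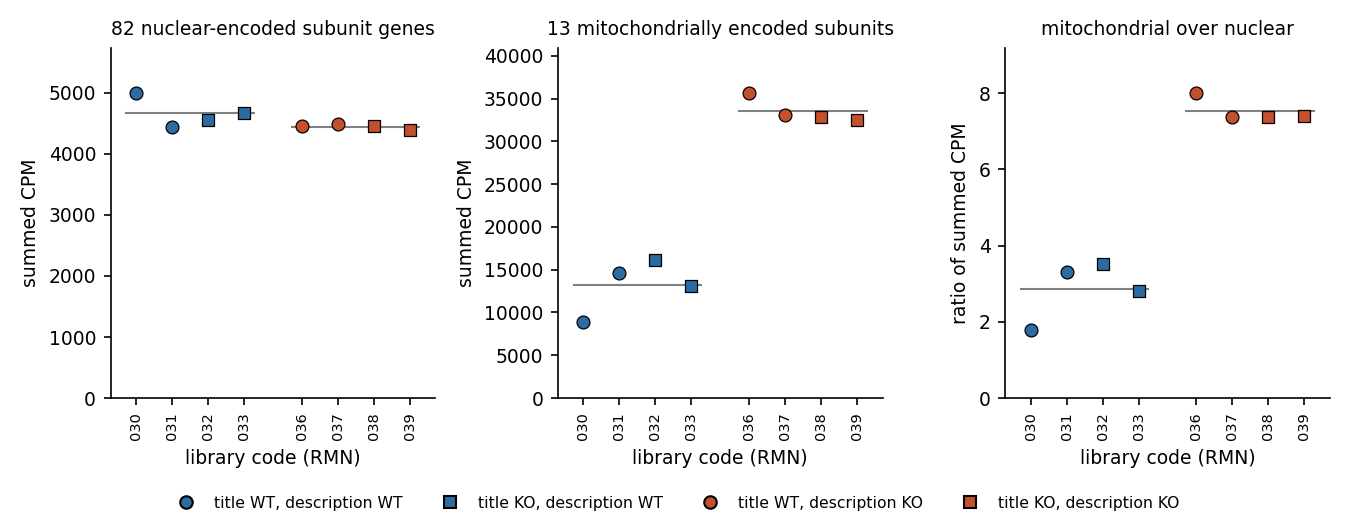
Summed CPM of 82 nuclear-encoded subunit genes (left), of 13 mitochondrially encoded subunits (middle) and the ratio of the 2 sums (right), by library code. Each point is 1 library, its shape the title genotype and its colour the description genotype, and grey lines are means of the earlier and later codes. The nuclear sums lie between 4392 and 4992 CPM, while the mitochondrial sums lie at 8881 to 16077 and 32529 to 35599 CPM.

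The ratio of mitochondrially encoded to nuclear-encoded subunit transcripts was 1.78, 3.30, 3.53 and 2.80 in the earlier codes, RMN030 first. In the later codes it was 7.99, 7.36, 7.37 and 7.41, in code order. The split followed the code run, with both title genotypes on each side of it. Within the later codes the 4 ratios were close together, and within the earlier codes RMN030 was the lowest.

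By complex, no nuclear sum followed the rise of the mitochondrial genes. Complex I, the NADH dehydrogenase, summed to 787 ± 39.1 CPM in the earlier codes and 722 ± 20.3 in the later codes (SD, n = 4 each), a ratio of 0.916. Complex II was at 460 ± 24.3 and 439 ± 26.8 CPM, and complex III at 684 ± 30.6 and 627 ± 21.3 CPM. Complex IV was at 466 ± 33.2 and 431 ± 33.8 CPM, and complex V at 2267 ± 128 and 2228 ± 54.3 CPM. The runs overlapped in every complex, and the mean was lower in the later codes for all 5, with ratios from 0.916 for complexes I and III to 0.983 for complex V. With the mitochondrially encoded counts taken out of the total, the ratio was 1.01 for complex V and 0.938 to 0.979 for the other 4.

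**Figure D2:**
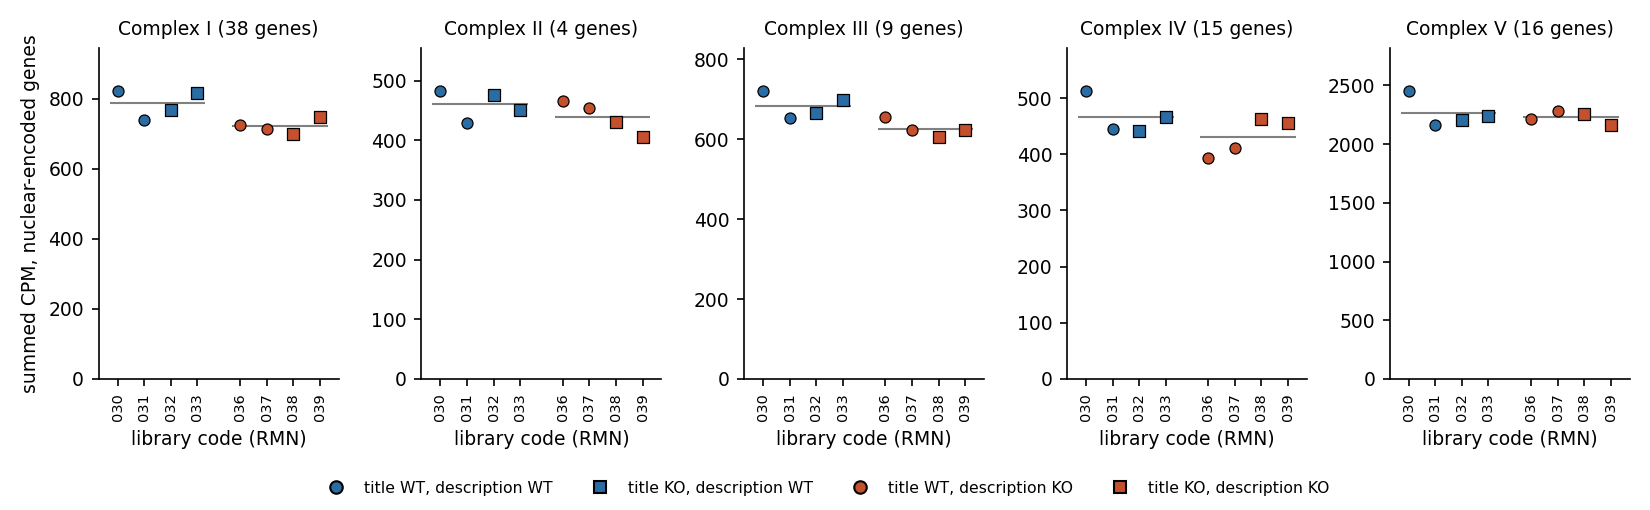
Summed CPM of the nuclear-encoded genes of each complex, by library code. Points are libraries, with shape for the title genotype and colour for the description genotype. Grey lines are means of the earlier and later codes. In complex IV, RMN036 and RMN037 have the lowest sums of the 8 libraries, at 393 and 411 CPM, of which Cox7a2l holds 216 and 208 CPM.

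The sum of the complex IV genes was lowest in RMN036 and RMN037. Its largest part was 1 gene, Cox7a2l, with a mean of 236 CPM. Cox7a2l was itself lowest in RMN036 and RMN037, at 216 and 208 CPM against 225 to 258 CPM elsewhere. Cox4i1 was also lowest in these 2 libraries, at 90.4 and 89.8 CPM against 97.7 to 152 CPM elsewhere. Cox7a2 was lowest in RMN036, at 5.45 CPM, and highest in RMN037, at 12.2 CPM. The complex summed to 513, 444, 441 and 466 CPM in RMN030 to RMN033. In RMN036 and RMN037 it summed to 393 and 411 CPM, and in RMN038 and RMN039 to 462 and 456 CPM. By title, the KO libraries of the later codes were above the WT libraries of the same codes, whereas in the earlier codes the KO libraries lay below RMN030 and beside RMN031. The difference between the title genotype's effect in the later and in the earlier codes was positive for all 12 complex IV genes that were tested, with a median of 0.49 on the log2 scale. None of the 12 passed the threshold for that difference. The difference was positive for 62 of all 88 members tested and below 0 for the other 26, where 50.8% of all genes were below 0. These genes share the same libraries, so their signs are not independent. Among the markers, the difference was positive for all 4 T cell markers tested, with a median of 5.83, and 2 of them passed. It was positive for all 3 macrophage markers, with a median of 1.38, and 0 passed. It was also positive for 4 of 5 blood, 3 of 4 mast cell, 3 of 5 fibroblast and 2 of 2 muscle markers. Of the Langerhans cell markers 7 of 10 were positive, and of the keratinocyte markers 2 of 6. RMN030 and RMN031, the libraries with T cell transcripts, are the whole WT group by title in the earlier codes, and their part in this difference was not tested. The median difference was 0.18 over the members and -0.0095 over all genes, and 0 members passed, where 0.0478% of 14630 genes did. Atp5d, the delta subunit of ATP synthase, had an unadjusted p of 0.0404 and an adjusted p of 0.596 for it (edgeR interaction term).

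Levels within the machinery differed far more between genes than between libraries. ATP synthase held the highest member on the scale of CPM per kilobase of transcript: Atp5b, the catalytic beta subunit, at 546, followed in its complex by Atp5a1, the alpha subunit, at 222. Cox7a2l, which joins complexes III and IV into supercomplexes and of which C57BL/6 mice are known to carry a shorter allele, was at 219. Cox4i1, the ubiquitous isoform of its subunit, was at 142. Uqcrc1, a core protein of complex III, was at 203, Sdha, the flavoprotein of complex II, at 88.6, and Ndufv1, which binds NADH and flavin in complex I, at 74.3.

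The short subunits were listed far lower. Median CPM per kilobase was 8.45 for the 23 subunit genes with a coding length under 300 bases, 14.3 for the 38 from 300 to under 600, 33.2 for the 9 from 600 to under 900 and 64.2 for the 12 of 900 or more. Across the 82 genes, Spearman's rho of CPM per kilobase with coding length was 0.594, a description across genes that share libraries. Over all protein-coding genes, the medians in the same 4 classes were 1.95, 3.16, 3.35 and 3.21. Atp5k, the short e subunit of ATP synthase, was at 2.26 CPM per kilobase, beside 546 for Atp5b. Reads that a member shares with a processed pseudogene may have been split or left out by the counting, so the levels of such members are uncertain. The 10 pseudogenes in the table that are named after members reached at most 4.96 CPM (Atp5l2-ps).

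**Figure D3:**
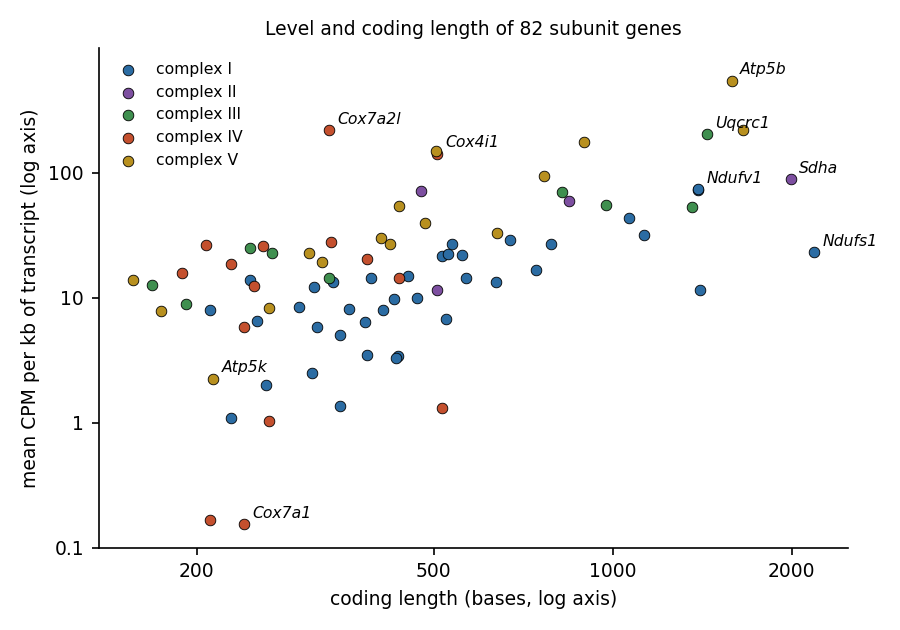
Mean CPM per kilobase of transcript over 8 libraries against coding length for 82 subunit genes, both on log axes and coloured by complex. Genes with a coding length of 900 bases or more lie between 11.6 and 546, and those under 300 bases between 0.156 and 26.3.

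Isoforms known from restricted tissues were low. Cox7a1 and Cox8b, the heart and muscle isoforms, had 0 to 2 and 0 to 3 counts per library, at or under the 3 counts that a count of 0 allows. Cox6b2, the testis isoform, was at 0.305 to 0.659 CPM. Cox4i2, the lung-enriched isoform that replaces Cox4i1, was at 0.475 to 1.51 CPM, and per kilobase at 1.32 on average beside 142 for Cox4i1. Ndufa4l2, a hypoxia-inducible relative of Ndufa4, was at 0.97 to 3.24 CPM. Ndufa4, which carries a complex I name but is known as a subunit of complex IV, was at 7.07 to 9.77 CPM. Cox6b2, Cox7a1 and Cox8b did not pass the filter on low counts, which left 88 members tested. Cox6a2, Cox7b2 and Cox8c had no row in the counts used here and were not analysed.

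In the undisputed libraries, 0 of 88 members passed an adjusted p of 0.05 (edgeR quasi-likelihood test, KO against WT), where 0.794% of 14727 genes did. At an unadjusted p under 0.05 the count was 2 of 88, both lower, against 11.3% of all genes. The median log2 fold change was -0.08 over the members and -0.0016 over all genes, with 57 of the 88 members and 50.2% of all genes below 0. Of the 13 mitochondrially encoded subunits, 8 rose, with a median log2 fold change of 1.55. For 73 of the 88 members the 95% interval lay wholly below 1.27, the smallest of those 13 log2 fold changes, and the 15 exceptions had mean levels from 0.839 CPM (Atp5k) to 5.57 CPM (Ndufc2).

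The lowest p-values among the members that were lower in the undisputed KO libraries were those of Ndufaf3, Atp5h and Ndufs7. Ndufaf3, an assembly factor of complex I, had 13.7 and 8.03 CPM in the WT and 6.53 and 4.25 CPM in the KO libraries (log2 fold change -0.96 ± 0.42 SE, adjusted p = 0.426, edgeR). Atp5h, the d subunit of the ATP synthase stalk, had 33.4 and 30.3 CPM in the WT and 24.3 and 15.9 CPM in the KO libraries (-0.62 ± 0.27, adjusted p = 0.432, edgeR). For both, the KO libraries lay below the WT libraries, but the changes did not pass the threshold, nor did that of Ndufs7 (-0.56 ± 0.26, adjusted p = 0.451, edgeR). Among members with higher values, Atp5f1, the b subunit, had 135 and 141 CPM in the WT and 152 and 156 CPM in the KO libraries (0.20 ± 0.15). Cox7c, a short complex IV subunit, had a log2 fold change of 0.45 ± 0.33, and Ndufc2, a short subunit of the complex I membrane arm, 0.64 ± 0.40.

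In the title reading, 0 of 88 members passed the threshold, as did 0% of 14630 genes, and 0 of 88 had an unadjusted p under 0.05 where 4.59% of genes did. The median log2 fold change was -0.06 over the members and -0.0034 over all genes. None of the 13 mitochondrially encoded subunits passed, 0 had an unadjusted p under 0.05, and their median was 0.09 (edgeR). DESeq2 called 24 genes in this reading and no member. The groups did not overlap for 2 members, both higher in KO, where 1.41% of genes were, and for 0 members lower in KO, where 1.53% were. They were Cox7a2l and Atp5f1. Cox7a2l (chromosome 17, 83501918 to 83517330, minus strand) was at 236, 225, 216 and 208 CPM in the WT libraries RMN030, RMN031, RMN036 and RMN037. It was at 240, 258, 253 and 252 CPM in the KO libraries RMN032, RMN033, RMN038 and RMN039. The KO libraries were all above the WT libraries, by a log2 fold change of 0.17 ± 0.09 SE with an adjusted p of 0.998 (edgeR).

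The 95% interval of Cox7a2l by title, -0.013 to 0.36, spanned 0, as did those of the other members with the lowest p-values. Ndufa10, an accessory subunit of complex I, averaged 80.9 ± 3.84 CPM over the WT and 93.9 ± 13 over the KO libraries (SD, n = 4 each). Ndufaf7, a methyltransferase that acts in complex I assembly, had a log2 fold change of 0.31 ± 0.20. Sdhb, the iron-sulphur subunit of complex II, averaged 74.5 ± 11.7 CPM over the WT and 61.4 ± 6.20 over the KO libraries (-0.29 ± 0.14). Cox5a, a matrix-side subunit of complex IV, had a log2 fold change of -0.35 ± 0.22, and Atp5j, the F6 coupling factor of the stalk, -0.27 ± 0.19. All had an adjusted p of 0.998 in edgeR.

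In the description reading, which is also later against earlier codes, 0 of 88 members passed an adjusted p of 0.05 in edgeR, where 2.02% of 14630 genes did. At an unadjusted p under 0.05 the count was 5 of 88, all lower in KO, against 12.6% of all genes. The median log2 fold change was -0.05 over the members and -0.0084 over all genes, and 51 of 88 members and 51.1% of all genes were below 0. All 13 mitochondrially encoded subunits were higher, with a median of 1.38. Of these, 12 passed the threshold and only mt-Nd3 missed it (1.79 ± 0.56, adjusted p = 0.150, edgeR). The smallest of those 13 log2 fold changes was 1.28, for mt-Co2, and the 95% interval of 83 of the 88 members lay wholly below it. The 5 exceptions were Atp5k, Cox4i2, Ndufa4l2, Ndufa5 and Ndufaf8, each with a mean under 2 CPM.

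**Figure D4:**
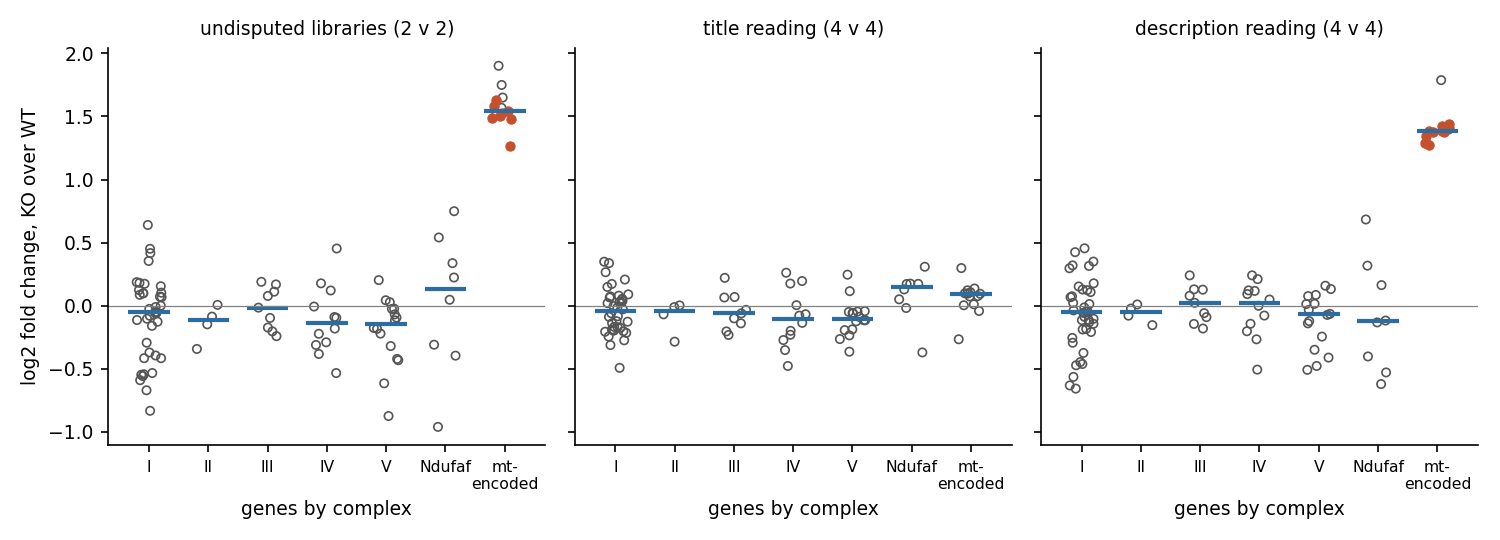
Log2 fold change (KO over WT, edgeR) of each tested gene by complex, for the undisputed libraries, the title reading and the description reading. Open circles did not pass the threshold, filled circles did, and blue bars are medians; in the outer panels the mitochondrially encoded genes (mt) lie at 1.27 or above, while no nuclear member lies above 0.75.

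Ndufv3, an accessory subunit of the NADH-oxidising tip of complex I (ENSMUSG00000024038, GRCm38 chromosome 17, 31520115 to 31531331, plus strand), was the member with the lowest p. It was at 21, 21, 24.6 and 23.6 CPM in RMN030 to RMN033 and at 15.3, 14.1, 13.6 and 13.4 CPM in RMN036 to RMN039. The 2 runs of codes did not overlap, and the title genotypes did. By description the mean was 22.5 ± 1.84 CPM for WT and 14.1 ± 0.844 for KO (SD, n = 4 each). The log2 fold change was -0.63 ± 0.16 (SE). The adjusted p was 0.0564 in edgeR, 0.00124 in DESeq2, which called 4.56% of the genes it adjusted, and 0.0444 in limma voom with quality weights, which called 2.56%. Over all alternatives for this gene the adjusted p ranged from 0.00124 to 0.164 and the log2 fold change from -0.71 to -0.60. By title its log2 fold change was 0.06 ± 0.24.

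Ndufs7 and Atp5h came next among the members with lower values by description. Ndufs7, the subunit of complex I that holds its last iron-sulphur cluster, was at 26, 24.7, 22.8 and 26.2 CPM in the earlier codes and 22.5, 18.8, 17.1 and 16.2 in the later codes. The groups did not overlap, with 22.8 against 22.5 at their edges, a log2 fold change of -0.38 ± 0.16 SE and an adjusted p of 0.332 (edgeR). Atp5h was at 33.4, 30.3, 24.3 and 27.5 CPM against 19.6, 24.5, 24.3 and 15.9, and these groups overlapped (-0.41 ± 0.18, adjusted p = 0.353). Among members with higher values, Ndufab1, the mitochondrial acyl carrier protein, had a log2 fold change of 0.30 ± 0.20, Ndufc2 0.45 ± 0.30 and the assembly factor Ndufaf8 0.68 ± 0.46, all uncalled.

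The groups by description did not overlap for 7 members that were lower in the later codes, against 5.09% of all genes, and for 1 that was higher, against 3.74%. The 7 were Cox4i1, Cyc1, Ndufa2, Ndufaf1, Ndufb4, Ndufs7 and Ndufv3, and the 1 was Ndufs5, an accessory subunit of complex I. They were named after their values were seen. Cyc1, the haem-bearing cytochrome of complex III, was at 84.5 to 97.4 CPM in the earlier codes and 71.7 to 84.4 in the later codes. The library total includes the mitochondrially encoded genes. They were 1.02 to 1.87% of it in the earlier codes and 3.76 to 4.03% in the later codes, which lowers nuclear CPM there. The relative gap between groups was smaller than that shift for Cyc1, Ndufs7, Cox4i1 (102 against 100) and Ndufa2 (4.84 against 4.80). Their separation depends on this scale. The gap was larger for Ndufaf1, Ndufb4 and Ndufv3.

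**Figure D5:**
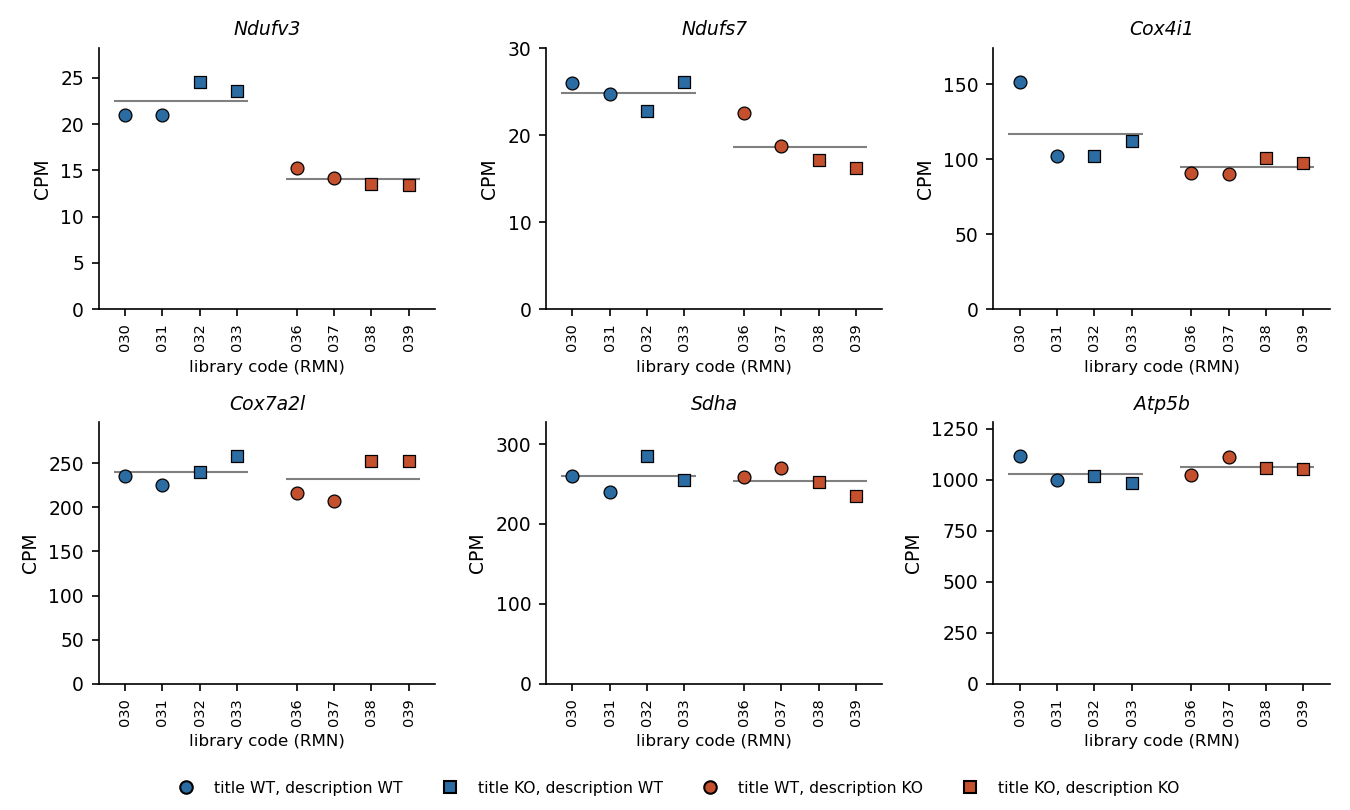
CPM of 6 members by library code, with each axis starting at 0; shape is the title genotype, colour the description genotype, and grey lines are means of the earlier and later codes. Ndufv3 is at 21 to 24.6 CPM in the earlier codes and 13.4 to 15.3 in the later codes, while Sdha and Atp5b overlap between them.

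The members with the highest level per length in complexes V, II and III were not called in any reading. Atp5b was at 1115, 999.9, 1021 and 986 CPM in the earlier codes and 1024, 1111, 1057 and 1054 in the later codes, with a log2 fold change of 0.08 ± 0.08 by description. Sdha was at 260, 240, 284 and 255 CPM and 259, 270, 252 and 234 CPM in the same order. Uqcrc1 was at 383, 332, 342 and 370 CPM and 345, 323, 278 and 309 CPM (-0.15 ± 0.09 by description). In all 3 genes the groups overlapped in both 4-against-4 readings. The intervals for description ran from -0.17 to 0.19 for Sdha and from -0.08 to 0.25 for Atp5b, below every mitochondrial fold change.

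The other members of complex II were not called in any reading either. Sdhd, a membrane anchor that binds ubiquinone, was at 75.7 to 95.1 CPM, and Sdhc, the other anchor, at 26.1 to 44.6 CPM. Their log2 fold changes lay between -0.15 and 0.00 in the 3 readings, and Sdhb ranged from -0.34 undisputed to -0.08 by description.

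RMN030, 1 of the 2 libraries with T cell transcripts, was the highest of the 8 for 38 of 88 members (43.2%), and for 16% of all 14630 genes tested. Cox4i1 was at 152 CPM there and at 89.8 to 112 CPM in the other 7 libraries. The second library with T cell transcripts, RMN031, was the highest for 5 members. Without RMN030 the median log2 fold change of the members was 0.05 undisputed, 0.02 by title and 0.02 by description, so its sign depended on RMN030. Without RMN031, Cox4i1 passed the threshold in the undisputed fit (-0.60 ± 0.16, adjusted p = 0.0264, edgeR), against -0.31 ± 0.20 and an adjusted p of 0.636 with it. Over its alternatives in that fit the adjusted p ran from 0.0264 to 1.00, and without RMN030 the log2 fold change was 0.02 ± 0.18. In RMN030 the median shift from a gene's own mean was 0.25 on the log2 scale for the 20 subunits with a coding length under 300 bases and 0.13 for the 12 of 900 or more. For all protein-coding genes tested, the same medians were 0.12 and -0.03.

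Of the other nuclear genes listed that serve the chain, none was called in any reading. Cycs, the soluble electron carrier cytochrome c, was at 42.3 to 54.6 CPM in the earlier codes and 52.4 to 71.8 in the later codes, highest in RMN038 and RMN039 (0.58 ± 0.20 undisputed, adjusted p = 0.270; 0.32 ± 0.14 by description, adjusted p = 0.338, edgeR). Atpif1, the inhibitor of ATP hydrolysis by complex V, was at 6.74 to 11.8 CPM and uncalled. Among 40 assembly factors in the table, 19 regulators of mitochondrial biogenesis and transcription, 78 mitochondrial ribosomal protein genes and 16 genes of the tricarboxylic acid cycle, 0 passed in any of the 3 readings (edgeR), where 0.794% of all genes passed undisputed, 0% by title and 2.02% by description. At an unadjusted p under 0.05 the 4 lists together held 4 of 150 tested genes undisputed, 2 of 151 by title and 3 of 151 by description, against 11.3%, 4.59% and 12.6% of all genes. Tefm, the elongation factor of mitochondrial transcription, was at 3.01 to 4.84 CPM in the earlier codes and 0.497 to 2.46 in the later codes (-1.49 ± 0.48 by description, adjusted p = 0.160, edgeR). Ppargc1b, a coactivator of mitochondrial biogenesis, had a log2 fold change of -0.71 ± 0.33 by description, and Cox19, a copper-handling assembly factor, -0.57 ± 0.24. Twnk, the mitochondrial DNA helicase, had values between 0 and 10.9 CPM.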

How the data were processed

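The authors deposited 1 table of unnormalized read counts by gene for 8 libraries, made with STAR 2.5.2b and featureCounts 1.5.0 on GRCm38 (mm10), per the submitters' processing notes. The sources used here give neither the strand setting nor the annotation release. Symbols matched 25080 of 25247 identifiers, and lengths came from GENCODE M21: transcript length is that of the principal transcript, coding length its coding part. Among counts of 1 to 20, 60.1% were even, so mates may have been counted separately, and counting error is then understated. CPM is the number of reads of a gene per 1000000 counted in that library.

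Tests used edgeR 4.0.16 in R 4.3.3 (filterByExpr, TMM, robust quasi-likelihood, two-sided, Benjamini-Hochberg over all genes, threshold 0.05). DESeq2 1.42.0 and limma 3.58.1 voom were alternatives, with other scalings and filters, libraries left out, a replicate block and code run as a covariate. Standard errors derive from the F statistic. On simulated counts, edgeR recovered 35 of 100 genes changed 2-fold and 77 of 100 changed 4-fold in the undisputed design (14727 genes), 66 and 88 by title and 62 and 85 by description (14630 genes each). Of 115, 164 and 154 calls in these designs, 3, 10 and 7 were false. The changed genes were drawn only from genes above a floor of mean counts, so the recovery does not cover the lowest members. The simulated libraries held no difference between code runs.

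The members, lists and tests were chosen with earlier results of these data known. Members named with values were those past the threshold, the 3 with the smallest p per direction and fit, the highest per length in each complex, tissue isoforms, Cox7a2l, Ndufa4 and complex II. Up to 3 genes of each other list were named from the smallest p. Same-numbered libraries were not treated as pairs, since their deviations did not all correlate above 0.1.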

Additional observations from a re-analysis of the deposited data

Results flagged for a closer look

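Within groups of 4 libraries, 1 library stood far from the other 3 in 4 of 140 groups of values examined, where chance alone flags about 1 in 20, or 7. The summed CPM of the nuclear-encoded subunits was 4992 in RMN030, against 4434 to 4487 in the other 3 WT libraries by title. The mitochondrially encoded subunits summed to 35599 CPM in RMN036, against 32529 to 33041 in the other 3 KO libraries by description. Ndufaf8 was at 2.90 CPM in RMN039, against 1.21 to 1.37 in the other 3 KO libraries by title. Cox8b was at 0.0672 CPM in RMN036, which is 1 count, and at 0 in the other 3 WT libraries by title, within what a count of 0 allows.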

How the results depend on the processing

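No member passed in any of the 19 alternatives by title, and none in 14 of 16 by description and 9 of 10 for the undisputed libraries. By description, DESeq2 and limma voom each called 1 member, Ndufv3. With each undisputed library left out in turn, which leaves 1 library in a group that is assumed to vary like the other, 0 to 1 members were called (Cox4i1 without RMN031), and the members' median log2 fold change ran from -0.19 to 0.054. With 1 library left out, that median ran from -0.09 to 0.02 by title and by description, positive without RMN030. By title it was -0.14 within the earlier codes and 0.04 within the later codes. Ndufaf7 changed sign by title within the later codes (-0.061); the cause was not tested. The calls over all genes moved more: undisputed from 117 to 440 without a filter, 293 in DESeq2 and 263 to 629 with a library left out; by title from 0 to 1 without a filter, 24 in DESeq2 and 57 within the earlier codes; by description from 296 to 704 in DESeq2 and 140 to 219 with a library left out. With the replicate number as a block, 0 members and 174 genes were called by description, and 0 members and 0 genes by title; the deviations of same-numbered libraries correlated at 0.0524 to 0.101 by title and -0.0068 to 0.0304 by description. The median width of the 95% interval over the 88 members was 0.954 on the log2 scale by description and 1.42 in the undisputed libraries, so that small changes were not detectable with this depth and number of libraries.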

Other observations

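Ndufb2, an accessory subunit of complex I, was at 11 CPM in RMN032 (180 counts) and at 3.62 to 6.25 CPM in the other 7 libraries. Ndufa11, of the complex I membrane arm, ranged from 2.34 CPM in RMN038 to 7.73 in RMN037. Both were picked after their values were seen.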
